A study of Mus musculus with 28 samples.

Results

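High-RNA and low-RNA pairs are wells of mouse liver that held a hepatocyte with an attached CD31+ cell and stood at opposite ends of RNA content. They were chosen by their ratio of gene UMIs to UMIs of ERCC spike-in RNA, a mixture of synthetic transcripts that serves as an internal standard, where a UMI (unique molecular identifier) counts 1 captured RNA molecule. Wells with at least 10 spike-in UMIs were ranked by this ratio within blocks of consecutive well numbers, each of the size of a plate. Of 4621 wells, 3 were left out for too few spike-in UMIs, 1147 were the high-RNA pairs, the highest 25% of their blocks, 1147 were the low-RNA pairs, the lowest 25%, and 2324 lay between them as a lower and an upper middle group.

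The pairs came from 17 MARS-seq libraries of 3 C57BL/6 male mice aged 6 or 7 weeks. The mice were kept under a reverse-phase light cycle, fasted for 2 hours from 7AM and anaesthetised with ketamine and xylazine, and the livers were digested by collagenase perfusion. MARS-seq is a plate-based method that counts polyadenylated RNA from its 3' end. A second table, used only to class genes, held 3720 wells of sorted single cells other than hepatocytes, of which 2692 had at least 300 UMIs. It covers 11 libraries from 2 male C57BL/6 mice of 3 and 4 months, with the same housing, fasting and anaesthesia. No source assigns wells to a library or an animal, so the pair table is 1 sample. No p-value was therefore computed, and the 95% intervals cover counting error only. The 17 blocks have the numbers 1 to 16 and 41, equal to those in the titles of the pair libraries, but no source states that a block is a library. Blocks held 8 to 320 wells with a median of 302, and the values given per block describe the spread within the table. Block 1 gave only 2 wells to each group and block 2 gave 16, and several extremes of block values come from these blocks. The tables shared 0 well names, and 0 pair wells repeated the counts of another.

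Hepatocytes are large cells that make most plasma proteins and carry out most of the metabolism of the liver, and many of them are polyploid. Liver sinusoidal endothelial cells are small and thin and line the sinusoids, the capillaries of the liver, through whose pores plasma reaches the hepatocytes. Most of the RNA of a pair is therefore likely that of the hepatocyte, though the split between its cells was not measured. The ratio does not separate the size of a cell, the RNA it had kept and the capture in its well, which cannot be told apart here.

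The median ratio was 62.2 gene UMIs per spike-in UMI in low-RNA pairs and 256.0 in high-RNA pairs, with ranges of 8.04 to 159.0 and 108.6 to 1630.9. The lower and upper middle groups had medians of 110.9 and 158.4. These values chose the members and are given as a description. At the limits, the median over blocks of the last well inside was 88.2 for low-RNA pairs against 89.97 for the first well outside, and 200.9 against 200.3 for high-RNA pairs. The ranges of the ratio overlap because the limits were set within blocks, whose fold between the medians of both groups ran from 2.86 to 5.38 with a median of 3.59.

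The difference lay in the gene UMIs more than in the spike-in UMIs. The median well held 5414 gene UMIs in low-RNA pairs (range 2423 to 22441) and 19538 in high-RNA pairs (range 3330 to 49311), which is 3.61-fold. The median spike-in count was 92 in low-RNA and 76 in high-RNA pairs, 1.21-fold lower, and the spike-ins made up 0.715% of all UMIs of the table. Ranking by gene UMIs alone would have placed 69.3% of the high-RNA and 71.0% of the low-RNA wells in the same group. Pooled over wells, the ratio was 4.41-fold higher in high-RNA pairs. When wells were ranked on 46 of the 92 spike-in rows and the ratio was measured on the other 46, it was 4.03-fold higher (4.53-fold on the rows used for ranking), and 4.001-fold the other way round (4.54-fold). Since the gene UMIs are the same in both ratios, these folds are a description too.

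**Figure D1:**
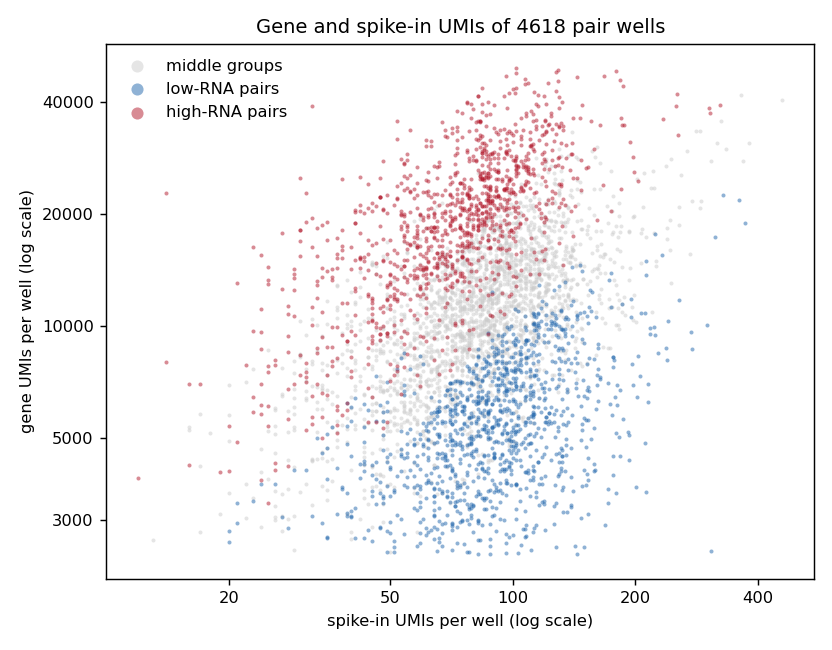
Each dot is 1 of 4618 pair wells, with its spike-in UMIs on the horizontal and its gene UMIs on the vertical axis, both on log scales. High-RNA pairs (red) and low-RNA pairs (blue) have median gene UMIs of 19538 and 5414 at median spike-in UMIs of 76 and 92, and both overlap the grey middle groups because the limits differ between blocks.

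Levels are given as UPM, UMIs per 1000000 gene UMIs summed over the wells of a group, so they are shares of the captured RNA. The gene UMIs that divide them also enter the ratio by which the wells were ranked, so levels are not independent of the ranking. A log2 ratio is the log2 of the level in high-RNA over that in low-RNA pairs. Totals were 6708174 gene UMIs in low-RNA and 23455956 in high-RNA pairs, and 9137 genes with at least 100 UMIs over both groups were measured. Their median log2 ratio was 0.05. Of these genes, 1141 (12.5%) were at least 25% higher and 1031 (11.3%) at least 20% lower in high-RNA pairs, which is the same fold in both directions. Counts of higher and lower genes below use these limits. The split depends on the total: without the 20 most abundant genes in it, 734 were higher and 1291 lower, and without the mitochondrial copies described further on, 704 and 1312. Larger folds lay mostly on the lower side, where 205 genes were at least 2-fold lower against 14 at least 2-fold higher.

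Genes of non-parenchymal cells were lower more often than other genes. Genes were classed by whether their level was at least 5-fold higher in the single non-parenchymal cells, at least 5-fold higher in pairs, or between. Of 1485 measured genes of the non-parenchymal class, 549 (37.0%) were lower in high-RNA pairs by these limits and 136 higher. Of 1002 genes higher in pairs, 21 (2.10%) were lower and 132 higher. The class between held 6650 genes, of which 461 were lower and 873 higher. Among the 205 genes at least 2-fold lower, 184 were of the non-parenchymal class.

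**Figure D2:**
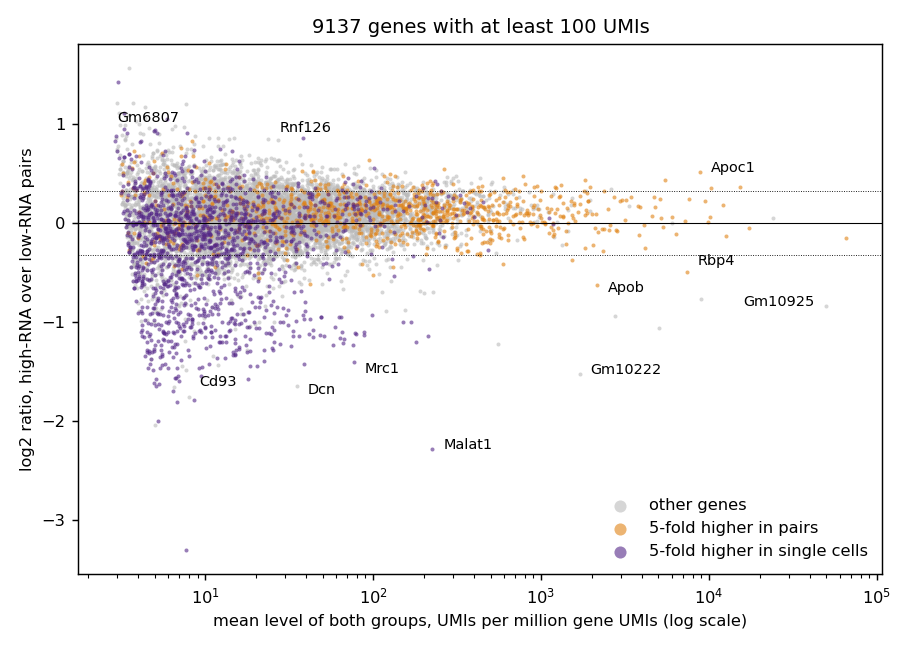
Each dot is 1 of the 9137 measured genes, with its mean level of both groups (UPM, log scale) on the horizontal and its log2 ratio, high-RNA over low-RNA pairs, on the vertical axis. Dotted lines mark the limits of 25% higher and 20% lower. Genes 5-fold higher in single non-parenchymal cells (purple) extend below the lower line, and Malat1, at -2.29, stands below the other labelled genes.

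Endothelial transcripts took a smaller share of the RNA in high-RNA pairs. Of 30 measured endothelial marker genes, 30 were at least 20% lower, where 11.3% of all measured genes were, with log2 ratios from -1.41 for Mrc1 to -0.72 for Emcn and a median of -1.10. Their summed level was 2473 UPM in low-RNA pairs, 1743 and 1442 in the lower and upper middle groups and 1160 in high-RNA pairs, a log2 ratio of -1.09 (interval -1.12 to -1.06) on 16587 and 27218 UMIs. Each of the 30 genes was lower in each step from the low-RNA to the high-RNA pairs. Since the gene UMIs that divide these levels also ranked the wells, the steps are a description and not a test. The summed level in low-RNA pairs ran over blocks from 1052 to 3991 with a median of 2522, and in high-RNA pairs from 749 to 1317 with a median of 1142. It was lower in high-RNA pairs in 17 of 17 blocks, with log2 ratios from -2.05 to -0.49. The ranges of levels overlap only through block 1, at 1052 and 749 UPM, which gave 2 wells to each group.

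Per spike-in UMI, a scale on which the wells were chosen, the same endothelial transcripts were more numerous in high-RNA pairs. They numbered 147 per 1000 spike-in UMIs in low-RNA and 305 in high-RNA pairs, 2.07-fold (interval 2.03 to 2.11), which is less than the 4.41-fold of all genes. Over blocks this fold ran from 0.778 to 3.12 and was above 1 in 16 of 17. Per well, the mean was 14.5 endothelial marker UMIs in low-RNA and 23.7 in high-RNA pairs, and each of the 4618 wells held at least 1. The median well had 0.232% of its UMIs on the markers in low-RNA pairs and 0.114% in high-RNA pairs.

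Single endothelial genes followed the sum. Igfbp7, which encodes a secreted IGF-binding protein of endothelium, ranged over blocks from 221 to 551 UPM in low-RNA pairs (median 288) and from 106 to 163 in high-RNA pairs (median 135), with no overlap between the groups. Its log2 ratio was -1.14 on 1969 and 3123 UMIs, and it was lower in 17 of 17 blocks. Mrc1, the mannose receptor with which sinusoidal endothelium clears glycoproteins, ranged from 67.5 to 153 UPM in low-RNA and from 22.2 to 53.6 in high-RNA pairs, also without overlap. The log2 ratio of Mrc1 was -1.41, and it was lower in 16 of 16 blocks with at least 10 of its UMIs.

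The receptors and junction genes of the endothelium were similar. Kdr, the VEGF receptor, had a log2 ratio of -1.10 (805 and 1315 UMIs) and was lower in 16 of 16 blocks, with block levels of 57.4 to 162 UPM in low-RNA and 34.9 to 66.8 in high-RNA pairs, which overlap. Ptprb, the vascular endothelial phosphatase, was at -1.20 and lower in 16 of 16 blocks. Pecam1, which encodes the CD31 used in the sort, was at -1.20 on 240 and 366 UMIs and lower in 15 of 16 blocks. Cdh5, the cadherin of endothelial junctions, stood nearer to 0 at -0.76. Of the secreted and scavenging group, Dnase1l3 was at -1.0, the hyaluronan receptor gene Lyve1 at -1.23, and Bmp2, the endothelial ligand that sets hepatocyte iron sensing, at -1.23.

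Among genes with at least 200 UMIs, separate intervals and the pooled direction in at least 90% of at least 8 blocks, the 15 with the largest lower folds were named. The rule itself favours genes whose block ranges lie apart, and the share of such genes among all measured genes was not computed. As a description and not a test, 5 of the 15 had block ranges that did not overlap between the groups. Besides Mrc1 these were Cd93, an endothelial surface glycoprotein gene (log2 ratio -1.58, lower in 16 of 16 blocks), the protocadherin gene Pcdh17 (-1.54, 12 of 12), F8, which encodes clotting factor VIII and is made in liver endothelium (-1.42, 16 of 16), and Tek, the angiopoietin receptor (-1.37, 14 of 14). Cd93 ranged from 14.4 to 73.8 UPM in low-RNA and from 4.48 to 12.4 in high-RNA pairs. The others of these 15 were Malat1, Gm10222, Ifi203, U4atac, Mndal, Marcks, Meis2, Ccnd2, Atp2b4 and Rgs5, with log2 ratios of -2.29 to -1.34. Of the 15, 13 were of the non-parenchymal class and 2 between.

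Malat1 had the largest lower fold of these 15 genes. It encodes an abundant long noncoding RNA that stays in the nucleus. Its level was 374 UPM in low-RNA pairs, 202 and 128 in the middle groups and 76.7 in high-RNA pairs, 4.88-fold lower (log2 ratio -2.29, interval -2.37 to -2.20). Over 16 blocks the level ran from 157 to 775 in low-RNA pairs (median 324) and from 49.8 to 193 in high-RNA pairs (median 62.0). Malat1 was lower in 16 of 16 blocks, with block log2 ratios of -3.68 to -0.42, and the ranges of levels overlap a little.

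On the spike-in scale, by which the wells were chosen, blocks lay on both sides of equal Malat1 numbers. The pooled number was 22.2 per 1000 spike-in UMIs in low-RNA pairs and 20.1 in high-RNA pairs, a ratio of 0.905 (interval 0.852 to 0.962), above 1 in 7 blocks and below 1 in 9, with a range of 0.328 to 3.29. The mean was 2.19 Malat1 UMIs per low-RNA and 1.57 per high-RNA well, and 38.5% and 41.8% of wells held 0. Of the 9137 measured genes, 2 were lower per spike-in UMI, Malat1 and Gm10801, a gene named after its values were seen, with 93 UMIs in low-RNA and 33 in high-RNA pairs. Neat1, the nuclear RNA of paraspeckles, had a log2 ratio of -1.30 on 140 and 199 UMIs and was lower in 10 of 14 blocks. Malat1 was at 3313 UPM in the single non-parenchymal cells, and the part of either cell in the difference was not tested.

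**Figure D3:**
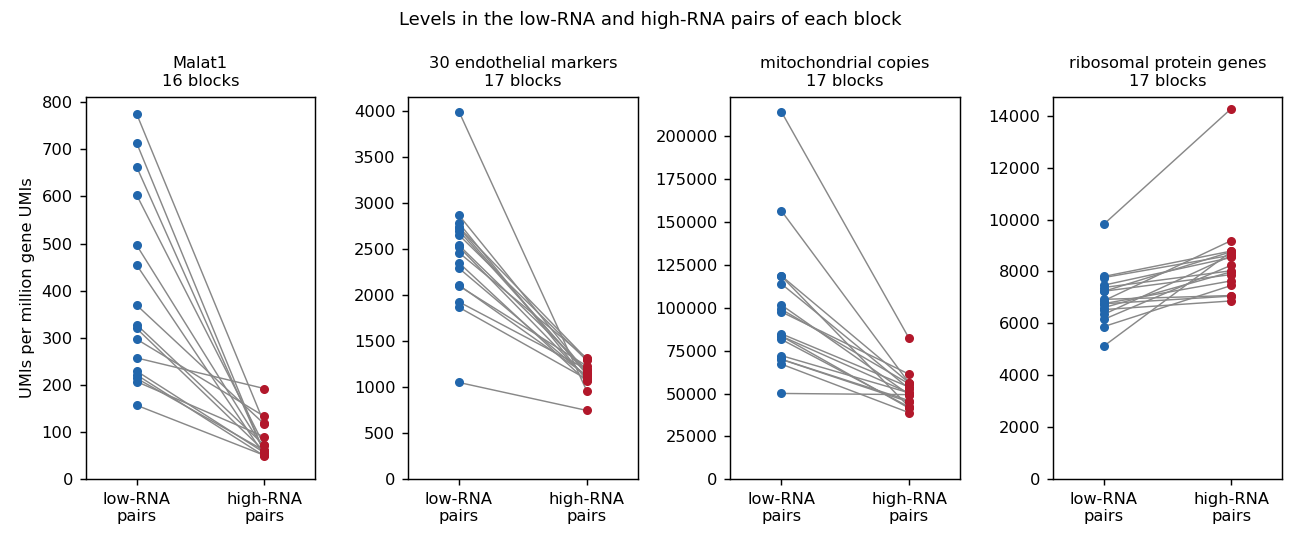
Lines join the low-RNA (blue) and high-RNA (red) pairs of each block, with levels in UPM, for Malat1 (16 blocks), the sum of 30 endothelial markers, the sum of the mitochondrial copies and the sum of ribosomal protein genes (17 blocks each). The lines of the first 3 panels run downward in every block shown and those of the ribosomal sum upward in 17 of 17.

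Markers of stellate and Kupffer cells had few UMIs and also took a smaller share in high-RNA pairs. Of the stellate cell markers, 5 were measured and 5 were lower, where 11.3% of all measured genes were. The log2 ratios were -1.75 for Lrat, the enzyme that stores retinol, -1.65 for the proteoglycan gene Dcn, -1.48 for Reln, -1.34 for Rgs5 and -1.28 for Ecm1. The stellate list summed to 914 and 1101 UMIs (log2 ratio -1.54, lower in 17 of 17 blocks, from -4.20 to -0.08), 1.52-fold more per spike-in UMI in high-RNA pairs. Acta2 of this list held 0 UMIs in both groups and so has no ratio. The 14 Kupffer cell markers summed to 159 and 229 UMIs (log2 ratio -1.28, lower in 15 of 15 blocks), and Adgre1 held 0 UMIs in both groups. Monocyte or dendritic cell markers summed to 65 and 116 UMIs, T or NK cell markers to 21 and 54, platelet markers to 33 and 63, B or plasma cell markers to 16 and 13, and neutrophil markers to 3 and 4, and the interval of the log2 ratio included 0 for the T or NK cell and the neutrophil markers. The cholangiocyte markers Krt7 and Krt19 held 0 UMIs in both groups. Their list summed to 101 and 319 UMIs, with an interval of the log2 ratio of -0.47 to 0.19. Erythroid markers took a larger share in high-RNA pairs (log2 ratio 0.23, interval 0.10 to 0.35), of which nearly all UMIs were Alas2, with 652 and 2670, while the globin genes held 1 UMI. Without 187 wells that held at least 2 UMIs of Kupffer, monocyte, dendritic, T, NK, B, plasma cell or neutrophil markers, the groups were formed again. Endothelial markers per spike-in UMI were then 2.12-fold higher in high-RNA pairs, beside 2.07-fold with all wells. The part of the cells of this paragraph in the endothelial result was otherwise not tested.

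Hepatocyte identity genes kept about the same share. Of 15 measured hepatocyte markers the median log2 ratio was 0.06. Among these 2 were higher and 1 lower, beside 12.5% and 11.3% of all measured genes. The sum of the markers had a log2 ratio of -0.04 and went from 13.3% to 12.9% of UMIs. Alb, the albumin gene, took 6.88% of UMIs in low-RNA and 6.18% in high-RNA pairs and was lower in 14 of 17 blocks. Over blocks Alb ran from 5.90% to 7.72% in low-RNA pairs and from 5.03% to 8.58% in high-RNA pairs, so the ranges overlap. Per spike-in UMI the hepatocyte markers were 4.30-fold and Alb 3.96-fold higher in high-RNA pairs. The 20 most abundant genes together took 31.4% of UMIs in low-RNA and 28.6% in high-RNA pairs. They include Gm10925, a mitochondrial copy described further on, which alone went from 6.35% to 3.55%.

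**Figure D4:**
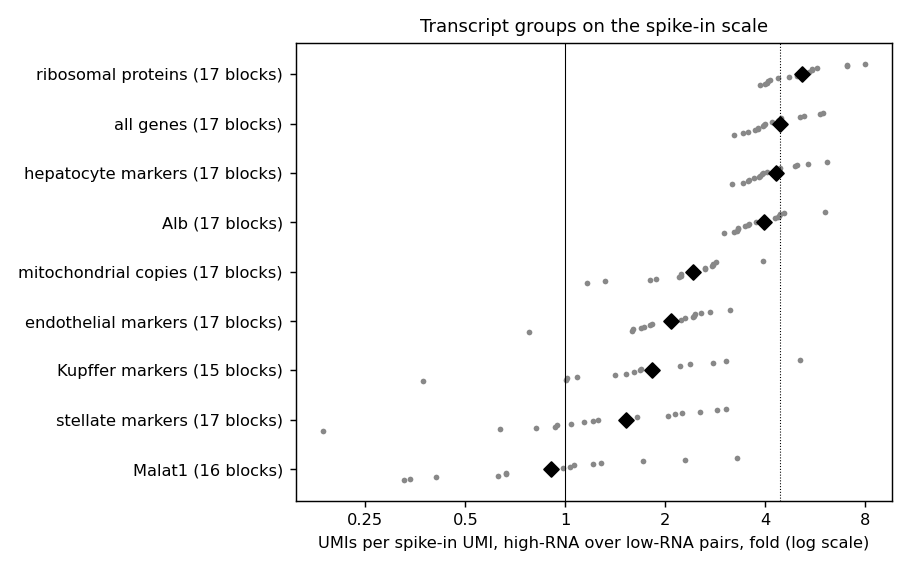
Fold of UMIs per spike-in UMI, high-RNA over low-RNA pairs (log scale), for 9 transcript groups, with diamonds for all wells and dots for blocks. The dotted line is the 4.41-fold of all genes, on which the ranking rests. Ribosomal protein genes lie at 5.14, hepatocyte markers at 4.30, mitochondrial copies at 2.42, endothelial markers at 2.07 and Malat1 at 0.905.

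The mitochondrial genome encodes subunits of the respiratory chain, and nuclear chromosomes carry pseudogene copies of it. All 37 rows of mitochondrial genes held 0 UMIs in the pair table, whereas 9 rows of nuclear copies together carried 8.88% of the UMIs of low-RNA pairs. The copies were found after their values were seen, as annotated pseudogenes with at least 90% identity to a mitochondrial gene in GENCODE M21 on GRCm38. That build differs from the mm9 of the submitters' notes, so the match is by gene name. Because the ends of several copies carry the same letters as the mitochondrial gene, reads of both cannot be told apart from the counts. The last 60 aligned bases of 3 copies are shown 5' to 3' to let the identity be seen, with mismatches in capitals.
Gm10925, equal to mt-Atp6: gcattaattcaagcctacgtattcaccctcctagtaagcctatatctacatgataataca
Gm10222, equal to mt-Nd4l: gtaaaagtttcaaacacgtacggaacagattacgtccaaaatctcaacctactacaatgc
Gm11410: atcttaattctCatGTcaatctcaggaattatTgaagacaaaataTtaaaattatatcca
mt-Cytb: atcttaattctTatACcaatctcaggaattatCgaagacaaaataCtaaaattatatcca
Gm10925 and Gm10222, on chromosome 1, had 0 mismatches in these 60 bases and 100% identity over the whole alignment, and Gm11410, on chromosome 4, had 5 mismatches here and 92.9% identity in all.

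These copies took a smaller share in high-RNA pairs. Their sum was 8.88% of UMIs in low-RNA pairs, 6.74% and 5.78% in the middle groups and 4.87% in high-RNA pairs (log2 ratio -0.87), and it was lower in 17 of 17 blocks, with log2 ratios of -1.49 to -0.02. Over blocks it ran from 5.004% to 21.4% in low-RNA pairs (median 8.47%) and from 3.89% to 8.22% in high-RNA pairs (median 5.04%), which overlap. Per spike-in UMI it was 2.42-fold higher in high-RNA pairs.

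The copy of mt-Atp6, Gm10925, went from 6.35% to 3.55% of UMIs (log2 ratio -0.84, lower in 16 of 17 blocks). The copy of mt-Nd4l, Gm10222, went from 2528 to 877 UPM (log2 ratio -1.53, lower in 17 of 17 blocks) and was 1.53-fold higher per spike-in UMI. The copy of mt-Cytb, Gm11410, had a log2 ratio of -0.76, and the other measured copies had ratios of -1.23 for Gm11407, -1.06 for Gm13339, -0.94 for Gm13340, -0.69 for Gm13341 and -0.41 for Gm11408. All 8 measured copies were thus lower by at least 20%, where 11.3% of all measured genes were. A high share of mitochondrial reads is used in the field as a sign of damaged cells, and whether low-RNA pairs held more of these was not tested.

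Nuclear genes of the respiratory chain did not follow the copies. Of 31 measured nuclear oxidative phosphorylation genes, 29 had ratios above 0, with a median of 0.17 beside 0.05 for all genes. Past the limits, 4 of the 31 were higher, about the 12.5% of all measured genes, and 0 lower, beside 11.3%. The 4 were Sdhc, a succinate dehydrogenase subunit gene (log2 ratio 0.42, higher in 16 of 17 blocks), the ATP synthase gene Atp5g1 (0.41, 13 of 17), and the complex genes Ndufs7 (0.34, 15 of 17) and Ndufa4 (0.32, 16 of 17). Their summed level was 1.02% in low-RNA and 1.15% in high-RNA pairs and was higher in 17 of 17 blocks.

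Of the lists with at least 4 measured members, ribosomal protein genes had the highest median. Of 37 measured genes 36 had positive log2 ratios and the median was 0.23. Among them 8 were higher and 0 lower, beside 12.5% and 11.3% of all measured genes. Their sum was 0.688% of UMIs in low-RNA and 0.801% in high-RNA pairs (log2 ratio 0.22, interval 0.21 to 0.24), higher in 17 of 17 blocks, from 0.03 to 0.77. Block levels ran from 0.513% to 0.982% in low-RNA and from 0.687% to 1.43% in high-RNA pairs, which overlap. Per spike-in UMI the sum was 5.14-fold higher. Rps18 ranged over blocks from 190 to 377 UPM in low-RNA and from 224 to 528 in high-RNA pairs, with a log2 ratio of 0.47, higher in 17 of 17 blocks. Rpl14 was at 0.43 and the stalk protein gene Rplp1 at 0.33, each higher in 16 of 17 blocks, and ribosomal protein genes can share reads with pseudogenes.

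The rest of the translation and protein machinery lay nearer to the median of all genes. Its counts are read beside the 12.5% of all measured genes that were higher and the 11.3% that were lower. Translation factors had a median of 0.12 with 1 of 23 higher, Eif4a1, a helicase of translation initiation (0.33), while the elongation factor gene Eef1a1 was at -0.30. Proteasome genes had a median of 0.13 with 4 of 27 higher and 0 lower, among them Psmb1 (0.40, higher in 17 of 17 blocks). ER translocation genes had a median of 0.13 with 2 of 22 higher, including the channel gene Sec61b (0.44, 16 of 16), and ER chaperones 0.04 with 2 of 24 higher and 1 lower. The 28 splicing and transcription genes had a median of 0.12, with 3 higher and 0 lower.

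Secreted proteins split by gene. Of 14 apolipoprotein genes, 3 were higher and 1 lower, beside 12.5% and 11.3% of all measured genes. The higher ones were Apoc1 (log2 ratio 0.51, higher in 16 of 17 blocks), Apoc4 (0.43, 17 of 17) and Apoa1, the main protein of HDL (0.35, 16 of 17). Apob, the large structural protein of VLDL and LDL, was lower. It went from 2595 to 1685 UPM (log2 ratio -0.62, interval -0.65 to -0.60) and was lower in 17 of 17 blocks, with block levels of 701 to 3308 in low-RNA and 638 to 2433 in high-RNA pairs. Apoc1 went from 7316 to 10420 UPM, with block levels of 4896 to 9916 and 7488 to 14128. The block ranges of both genes overlap, and their directions were opposite in a list whose median was 0.16.

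The remaining plasma protein groups showed few differences, where 12.5% of all measured genes were higher and 11.3% lower. Plasma proteins had a median of -0.05 with 1 of 33 higher, the protease inhibitor gene Serpina1e (0.36, 16 of 17 blocks), and 1 lower, Rbp4, which rested on 1 block and is described further on. Complement genes had a median of -0.06 with 0 of 19 in either direction. Of 20 acute phase genes 1 was lower, Cp, which encodes the copper carrier ceruloplasmin (-0.37, lower in 17 of 17 blocks).

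Among the genes of the class higher in pairs, the same naming rule gave 13 lower genes. This set was added after values were seen. After Apob they were Mup10, of the major urinary protein family (-0.53), the vitamin C transporter gene Slc23a1 (-0.42), Cp, Gm4788 (-0.30), the alpha-macroglobulin family genes Mug2 (-0.30), Mug1 (-0.29) and Pzp (-0.26), 1300017J02Rik (-0.28), Ptprd (-0.25), Dsg2 (-0.19), the clotting factor gene F5 (-0.18) and Klkb1 (-0.14). Mup10, Mug1 and Mug2 belong to families of near-identical genes, between which reads may have been split. Apart from Apob, Mup10, Slc23a1 and Cp, these lay within 20%.

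Metabolic lists mostly had medians slightly above that of all genes. Their counts are read beside the 12.5% of all measured genes that were higher and the 11.3% that were lower. Conjugation enzymes had a median of 0.13 with 7 of 24 higher and 0 lower. Mgst1 was at 0.44 and Gsta3 at 0.33, each higher in 17 of 17 blocks, and Gstm1 was at 0.36. Antioxidant genes had a median of 0.22, with 6 of 25 higher, among them Prdx5 (0.41) and Prdx6 (0.36), each higher in 17 of 17 blocks, and Gpx1 (0.35), and 1 below the lower limit, Mt2, at -0.47 pooled and -0.06 without block 11. Cytochrome P450 genes had 0 of 34 in either direction and a median of 0.02, and bile acid genes 0 of 22 with a median of 0.05. Conjugation enzymes and P450 genes, both parts of drug metabolism, thus had different counts, a difference that was not tested.

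Nitrogen metabolism was covered by 2 lists, read beside the 12.5% of all measured genes that were higher and the 11.3% that were lower. Urea cycle genes had a median of 0.13 with 2 of 10 higher, Ass1 (0.37, 16 of 17 blocks) and Nags (0.36, 13 of 16). Amino acid breakdown had a median of 0.13 with 4 of 37 higher, among them the kynurenine pathway gene Haao (0.40), the glycine methyltransferase gene Gnmt (0.38) and Gstz1 (0.33). Haao and Gnmt were each higher in 17 of 17 blocks. The lower count in both lists was 0.

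Members of the lipid and sugar lists past the limits are counted beside 12.5% of all measured genes higher and 11.3% lower. Fatty acid oxidation had a median of 0.12 with 3 of 25 higher, led by Bdh1 of ketone body synthesis (0.48, 15 of 16 blocks), and 1 below the lower limit, Acadl, whose pooled ratio of -0.38 was 0.06 without block 14. Lipogenesis had 1 of 17 higher, Agpat2 (0.40, 17 of 17), and cholesterol synthesis 1 of 20. Glycolysis had 2 of 12 higher, among them Gpi1 (0.32), and gluconeogenesis 0 of 11 in either direction at a median of 0.15. Glycogen metabolism had 2 of 13 higher and 2 lower. Peroxisome genes had a median of 0.21 with 2 of 19 higher, Acot8 (0.69) and Pex14 (0.46).

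Regulators are read beside the 12.5% of all measured genes that were higher and the 11.3% that were lower. Among 22 nuclear receptors and hepatocyte transcription factors, 6 were higher and 1 lower, with a median of 0.17. Cebpb, a factor of the acute phase and of liver growth, was at 0.46 and higher in 16 of 16 blocks, and its relative Cebpa was at 0.49 and higher in 14 of 16. Of 24 immediate early genes, 6 were higher, among them Myc (0.65, 11 of 11 blocks) and Junb (0.54, 13 of 16), and 4 lower, among them Klf2, a flow-sensing factor of endothelium (-0.68, lower in 14 of 15), and Nr4a1. Nr4a1 had a pooled log2 ratio of -0.77 but was higher in 4 of the 5 blocks with at least 10 of its UMIs.

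In some lists the lower members were mainly of the non-parenchymal class. Their counts are read beside the 11.3% of all measured genes that were lower and the 12.5% that were higher. In the actin and tubulin list, 5 of 20 were lower, all 5 of the non-parenchymal class, such as the actin-binding genes Tmsb4x (-1.13, lower in 16 of 16 blocks) and Msn (-1.01) and the filament gene Vim (-1.05). Of 24 interferon and MHC class I genes 6 were lower, 4 of them of that class, and 1 higher, with Ifit3 at -1.10. Rsad2 was at -1.04 pooled and at -0.16 without block 5. Cell cycle genes had 3 of 15 lower, all of that class, with Ccnd2 at -1.39, and 3 higher, with Gmnn, the replication licensing inhibitor, at 0.86. Of 11 regulators of cytokinesis and polyploidy, 2 were higher and 2 lower.

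The members of the remaining lists past the limits are counted beside the 12.5% of all measured genes higher and the 11.3% lower. Those counts were 4 of 17 circadian clock genes higher and 0 lower, 1 of 13 heat shock genes higher (Hspb1, 0.77), 1 of 25 lysosome genes higher, 2 of 20 male-biased genes in each direction, and 1 of 14 growth hormone and IGF genes below the lower limit, Igfbp1, whose pooled ratio of -0.42 was 0.09 without block 3. Of the landmark genes of lobule position, 1 of 11 pericentral genes was lower, Slc1a2, and of 12 periportal genes 3 were lower, among them the cadherin gene Cdh1 (-0.87), and 1 higher, Ass1. Over the 38 pathway lists with measured members, 86 of 779 list places were higher and 38 lower, beside 12.5% and 11.3% of all measured genes, and 31 list medians lay above 0 and 24 above the median of all genes. Without the mitochondrial copies in the total, 24 medians lay above 0. The median and the summed log2 ratio differed in sign in 8 lists, marker lists included, which were periportal landmarks, male-biased genes, interferon and MHC class I genes, acute phase, ER chaperones, hepatocyte markers, bile acid genes, and actin and tubulin.

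**Figure D5:**
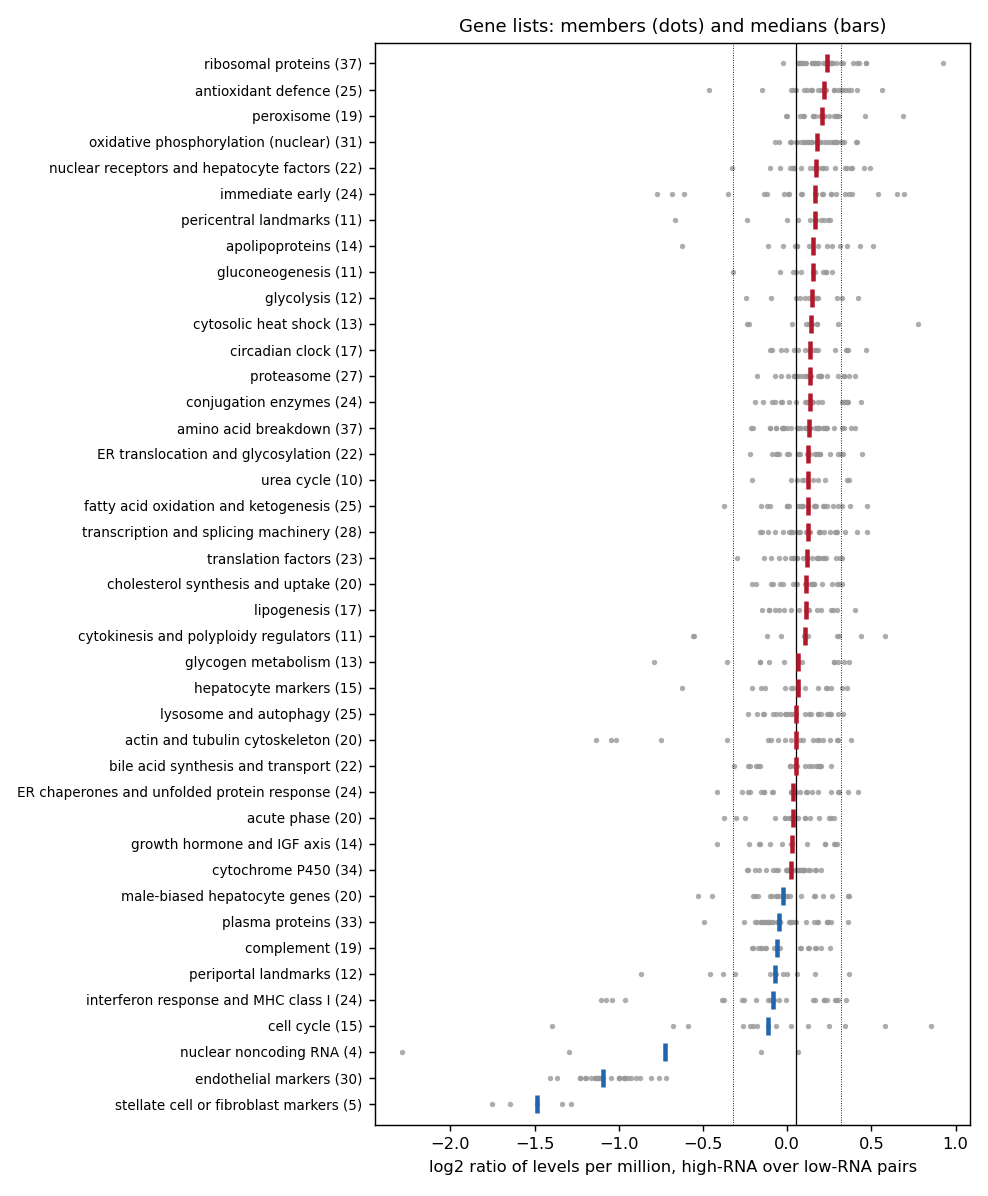
Log2 ratios of levels in UPM, high-RNA over low-RNA pairs, for the measured members (dots) and medians (bars) of each gene list with at least 4 measured members, whose number is in brackets. The solid line is the median of all 9137 genes, 0.05, and dotted lines mark 25% higher and 20% lower. Of the lists drawn, ribosomal proteins have the highest median, 0.23, and stellate markers, -1.48, and endothelial markers, -1.10, the lowest.

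The largest higher folds were smaller than the largest lower ones. The 15 genes named by the same rule had log2 ratios of 0.65 to 0.91, 12 of them in the class between and 3 of the non-parenchymal class. Rnf126, a ubiquitin ligase gene, had 114 and 718 UMIs (log2 ratio 0.85, interval 0.56 to 1.15) and was higher in 15 of 16 blocks, with block levels of 4.13 to 30.003 UPM in low-RNA and 12.7 to 42.3 in high-RNA pairs. Tomm5, of the mitochondrial import pore, was at 0.85, Pelp1 at 0.88, the splicing genes Sf3a2 and Snrpf at 0.78 and 0.75, and Paox, a polyamine oxidase gene, at 0.68 and higher in 16 of 16 blocks. The others were Gm6807, Raet1d, 2300009A05Rik, Myst4, Pyroxd2, Gm9493, Scand1, Ubqln4 and Myc. The block ranges of all 15 overlap between the groups.

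Some pooled ratios came from a single block. A search added after values were seen found 39 of the 9137 genes at least 5-fold higher in 1 block than in the median of the others, in 14 different blocks. In that block 33 of the 39 took a smaller share in high-RNA pairs. The median log2 ratio of the 39 was -1.29 there and 0.06 over the other blocks. Because the genes were chosen by their level in that block, these values are a description and not a test. Of the 39 genes, 23 were at least 20% lower in the pooled values, beside 11.3% of all measured genes, and 3 without the block. The share of all genes lower within single blocks was not computed.

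Rbp4, the plasma carrier of retinol, was 1 of the 39. In block 9 it stood at 71521 UPM in low-RNA and 20815 in high-RNA pairs, with 418 and 560 UMIs per well, while the other blocks had 24.3 and 94.0 UMIs per well. Its pooled log2 ratio was -0.50, it was 0.18 without block 9, and Rbp4 was higher in 16 of 17 blocks. Igfbp1 had a pooled ratio of -0.42 and 0.09 without block 3, and the metallothionein gene Mt2 -0.47 and -0.06 without block 11. Acadl, which was not among the 39, had a pooled ratio of -0.38 and 0.06 without block 14.

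Position along the lobule depended on how wells were ranked. Hepatocytes near the central vein and near the portal vein express different genes, and a score of pericentral against periportal landmark genes split the wells into tertiles. With ranking within blocks, high-RNA pairs were 32.7% pericentral, 35.1% middle and 32.2% periportal, and low-RNA pairs were 32.8%, 32.7% and 34.5%. The exact binomial intervals overlap for each zone, but they count wells and not animals, so they do not show that position was equal. With ranking over all wells, 28.8% of high-RNA and 37.8% of low-RNA pairs were pericentral. The pericentral share was higher in high-RNA pairs in 9 of 17 blocks and lower in 8, with differences of -13.7 to 50 percentage points. Within zones, the summed endothelial markers had log2 ratios of -1.01 in pericentral, -1.04 in middle and -1.19 in periportal pairs, the mitochondrial copies -0.96, -0.83 and -0.74, Malat1 -2.56, -2.20 and -2.13, and ribosomal protein genes 0.20, 0.23 and 0.22.

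More genes were detected in high-RNA pairs, mostly with depth. The median well had 1737 detected genes in low-RNA and 3832 in high-RNA pairs. With each well thinned to 2000 UMIs, the medians were 884 and 914, with 902 and 907 in the middle groups, and the thinned number was higher in high-RNA pairs in 16 of 17 blocks.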

How the data were processed

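The submitters' processing notes name bcl2fastq 2.15.0.4 and mm9. Aligner and annotation were not given in the sources used here. Both tables deposited by the authors hold counts, whole UMI numbers per gene symbol and well, not normalized by the authors, with 33856 gene and 92 spike-in rows. Levels, exact Poisson intervals and exact conditional binomial intervals of ratios (95%) were computed with Python 3.11.15, numpy 2.4.6, scipy 1.17.1 and pandas 2.3.3. The interval step was tested on simulated data. TMM factors from edgeR 4.0.16 in R 4.3.3 were an alternative.

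Members and lists were chosen with earlier results of these data known. Of 951 list genes 946 matched, 10 by an older symbol. Genes named for the 15 largest folds each way had at least 200 UMIs and separate intervals. They also had the pooled direction in at least 90% of at least 8 blocks with 10 or more UMIs. Up to 4 members per list with at least 200 UMIs were named by the largest absolute log2 ratio, without the interval and block limits. Defining markers were named without these limits. Single cells were used at 300 UMIs or more. No doublet caller was run, since wells were sorted as doublets.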

Additional observations from a re-analysis of the deposited data

How the results depend on the processing

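Depth limits genes near 100 UMIs. No paired analysis was possible because wells are not assigned to animals, between which no difference was tested. With at least 500 UMIs per gene, 504 genes were higher and 259 lower, and with at least 30 UMIs 1838 were lower. With only the outer 10% of wells at each end 2078 were higher, thinned to 2000 UMIs 422 were lower, and without the 20 most abundant genes 734 were higher. Without the mitochondrial copies in the total, an alternative chosen after seeing the data, as were the median over blocks and leaving out blocks 1 and 2 or genes high in 1 block, 704 were higher. Endothelial markers per spike-in UMI were 2.65-fold higher with the outer 10% and 3.11-fold with groups formed within block and tertile of the endothelial share itself, where that share is nearly fixed by construction and the log2 ratio of their level went from -1.09 to -0.32. There Malat1 was at -1.80, mitochondrial copies at -0.80 and ribosomal protein genes at 0.18. The pericentral share of high-RNA pairs was 29.5% with the outer 10% (low-RNA pairs 32.8%), 28.8% with ranking over all wells (37.8%) and 29.4% within endothelial share tertiles (35.7%), against 32.7% (32.8%). Leaving out each block in turn gave 1063 to 1252 higher and 974 to 1039 lower genes, 31 to 32 list medians above 0, endothelial folds of 2.02 to 2.14 and pericentral shares of 30.8% to 33.9%. List medians above 0 numbered 24 to 32 under the other alternatives.

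Of 238 genes, those past the limits that changed direction were the following. Ranked over all wells, Rbp4 was at 0.073, Igfbp1 0.59, Nr4a1 0.86 and Myc -0.037. Leaving out each block in turn gave Rbp4 from -0.53 to 0.18 (without block 9), Acadl from -0.42 to 0.064 (without block 14) and Igfbp1 from -0.46 to 0.093 (without block 3). As medians over blocks, Rbp4 was at 0.18, Acadl 0.074, Igfbp1 0.17 and Nr4a1 1.26. With the outer 10% Slc1a2 was at 0.10 and Tap1 at 0.031, and by gene UMIs alone Slc1a2 was at 0.049. Within endothelial share tertiles Tap1 was at 0.094, Egfl7 0.012 and Klf2 0.058. Thinned, Myst4 was at -0.087, Gm11408 0, Tyms -0.34, Ciart -0.13 and Nr1i2 -0.012. Apart from what leaving out a block itself shows, the cause was not tested.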
